A study of Homo sapiens with 2 samples.

Results

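The glycolysis and hypoxia response genes described here are 43 genes named by symbol, of 63677 genes counted in the series: 24 enzymes and transporters of glycolysis and 19 regulators and targets of the hypoxia response. They were chosen by symbol, and all 43 were matched to a gene ID of the count tables. RNA was sequenced from MDA-MB-231, an established human breast cancer cell line of the triple-negative type, in 2 libraries. The control group is 1 library of MDA-MB-231 cells labelled as control. The sources used here do not say what these cells received, and the text on dose and time stands on both samples. The CCE group is 1 library of MDA-MB-231 cells treated with Carpesium cernuum extract, a plant extract, at 1 µg/mL for 24 h. The sources used here do not give the oxygen tension or glucose supply of the cultures.

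Glycolysis splits glucose into pyruvate in the cytosol, and lactate dehydrogenase and the monocarboxylate transporters then turn pyruvate into lactate and carry it out of the cell. Many of its enzymes have several isozymes, and many cancer cells use the pathway heavily also where oxygen is present. When oxygen is short, the prolyl hydroxylases of the EGLN family no longer mark the alpha subunits of hypoxia-inducible factor (HIF) for breakdown, and HIF raises the transcription of glycolytic genes, growth factors and its own regulators. HIF is controlled mainly through the stability of its protein, which RNA counts do not measure.

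The control library was the shallower, with 5633569 counts on genes, against 34884501 with CCE, so that 1 count equalled 0.180 CPM (CPM, library-scaled counts per 1000000) in control and 0.0283 CPM with CCE. Each group is 1 library, so no test was possible and nothing could be checked in replicates. Each ratio is CCE over control and the range after it in brackets is its exact 95% Clopper-Pearson interval (Woolf interval for a ratio between 2 genes), which holds the counting error but no variation from culture to culture. Genes whose 2 libraries averaged 1 CPM or more count as measured, and a call needed a ratio beyond 1.5-fold with an interval that left out 1. As a check of the label, the mesenchymal gene VIM had 3739 and 1801 CPM in the control and CCE libraries. CD44 had 767 and 616 CPM, EGFR 436 and 380, and the epithelial genes KRT18 204 and 168 and KRT8 175 and 129. The estrogen receptor gene ESR1 had 0 counts in both libraries, which allows up to 3 counts (0.540 and 0.0849 CPM). PGR had 0 and 6 counts. ERBB2, also listed as low for the triple-negative type, had 308 and 1831 counts (55.4 and 51.8 CPM) and so was not absent. The blood cell gene PTPRC had 2 and 11 counts. The hemoglobin gene HBB had 41 and 300 counts (7.37 and 8.49 CPM), and PECAM1 was not matched to an ID.

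Of the glycolysis genes, 21 of 24 (87.5%) had ratios within 1.5-fold, as did 72.2% of all measured genes. HKDC1, a hexokinase, was 5.39 times higher by counts but lower by the authors' FPKM, and PGAM1, the phosphoglycerate mutase, was 1.61 times lower. Of the measured hypoxia response genes, 11 of 18 (61.1%) lay within 1.5-fold. ANGPTL4, NDRG1, KDM3A and MXI1 were between 1.83 and 2.31 times higher, STC1 was 2.18 times lower, and CA12 was 1.96 times lower by counts but higher by FPKM. The median size of a log2 ratio, whatever its sign, was 0.30 for glycolysis genes, 0.35 for hypoxia genes and 0.35 for all measured genes. In all, 6 of 42 measured members were called higher (14.3%) and 3 lower (7.14%). Of all 14424 measured genes, 12.1% were called higher and 11.3% lower, and of the measured protein-coding genes 11.5% and 10.9%. The members' shares are therefore near the background, and the counts are no result about the members as a set. Of the 9 called members, 6 overlap no other counted gene. In such bulk samples, fewer cells of a type and less RNA per cell cannot be told apart. At 2-fold, 3 members were called higher and 1 lower, where 4.36% and 4.92% of all measured genes and 3.26% and 4.33% of the protein-coding ones were.

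**Figure D1:**
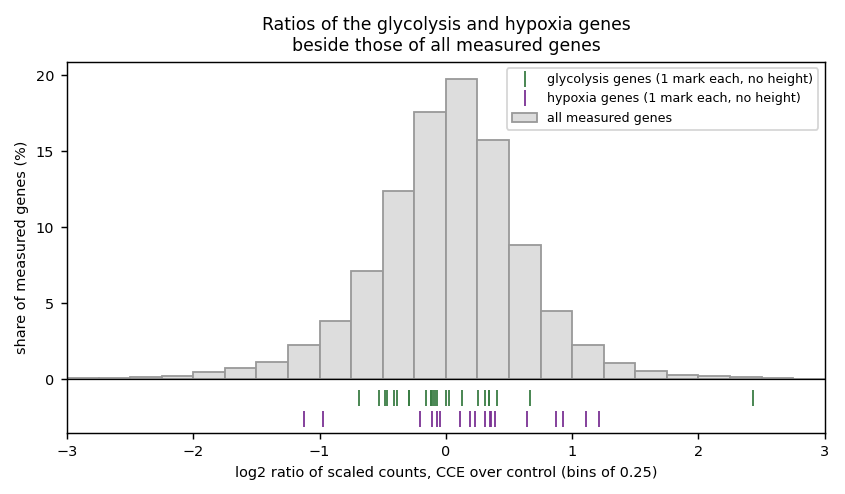
Histogram of log2 ratios (CCE over control, bins of 0.25, vertical axis the share of 14424 measured genes in percent, ratios beyond 3 not drawn) with 1 mark under it for each measured glycolysis gene (green) and hypoxia gene (purple). The marks of both lists lie mostly within the bulk of all genes, and the green mark at 2.43 is HKDC1.

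The median log2 ratio was -0.09 over the 24 glycolysis genes (quartiles -0.31 and 0.27) and 0.27 over the 18 measured hypoxia genes (quartiles -0.06 and 0.58), beside 0.05 over all measured genes (quartiles -0.31 and 0.38). Glycolysis genes together took 1.316% of gene counts in the control library (95% Clopper-Pearson interval 1.307 to 1.325) and 1.288% in the CCE library (1.285 to 1.292). Hypoxia genes together took 0.141% (0.138 to 0.145) and 0.178% (0.176 to 0.179). By counts, the glycolysis share was thus slightly lower and the hypoxia share higher in the CCE library. HIF1A and VEGFA held 2515 and 1837 of the 7970 hypoxia counts in control, and 20411 and 12588 of 61970 with CCE. By FPKM both were lower with CCE, HIF1A at 90.9 and 21.5 and VEGFA at 87.9 and 84.2. 15 of the 42 measured members had an interval above 1, 14 an interval below 1 and 13 an interval that included 1. The matching shares over all measured genes were not computed, so these counts are not read as a result about the members. The intervals hold counting error only, so whether they leave out 1 depends on the counts of a gene as well as on its ratio. 9 measured members had under 100 control counts, and their intervals are wide.

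**Figure D2:**
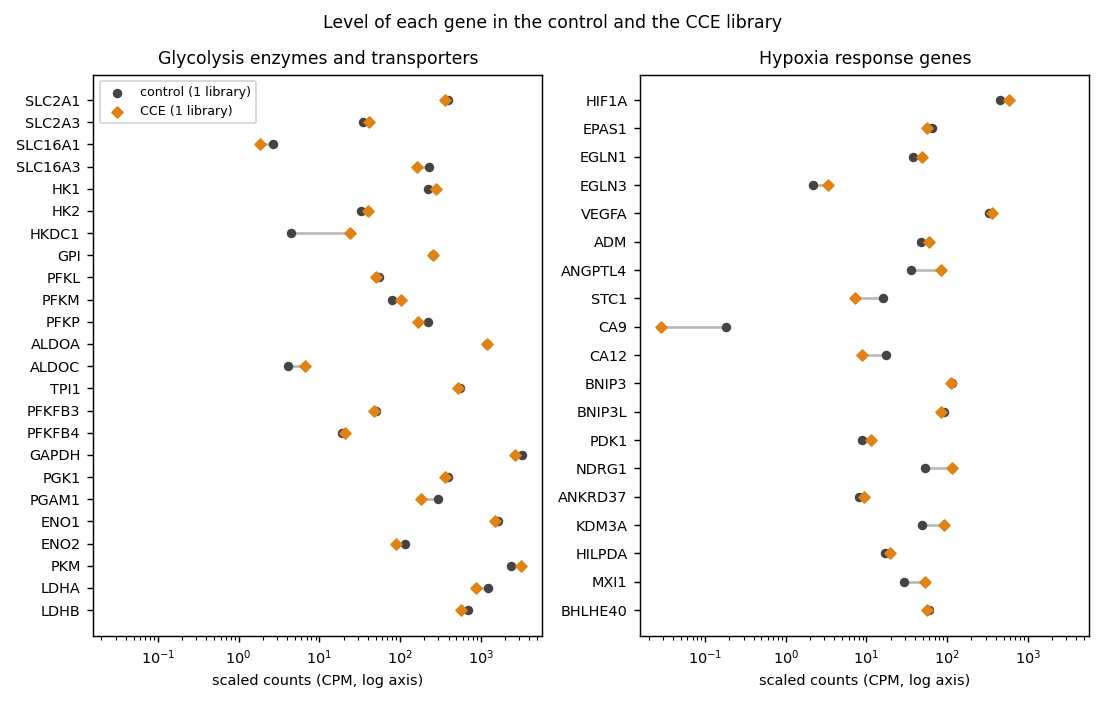
Scaled counts (CPM, log axis) of the 24 glycolysis genes (left) and 19 hypoxia genes (right), with a circle for the control library and a diamond for the CCE library, 1 library each. For most genes the 2 symbols nearly coincide, the longest gap among measured genes is that of HKDC1, and the gap of CA9 stands for 1 count in each library.

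HIF binds a short DNA core, ACGTG or GCGTG. The 250 bases before the start of the gene are printed for 5 members because they pair a motif-holding promoter with different readings in these libraries: ANGPTL4 and KDM3A, hypoxia targets called higher, ALDOC, a glycolysis gene called higher, and LDHA and BNIP3, textbook HIF targets that were not. Sequences are from RefSeq (GRCh38.p14, strand of the gene, 5′ to 3′). Capitals mark every ACGTG or GCGTG on either strand, so CACGT and CACGC are capitalised as well. A CACGTG holds the first core on both strands and counts as 2 matches.
ANGPTL4 (chr19:8363905-8364154, plus strand): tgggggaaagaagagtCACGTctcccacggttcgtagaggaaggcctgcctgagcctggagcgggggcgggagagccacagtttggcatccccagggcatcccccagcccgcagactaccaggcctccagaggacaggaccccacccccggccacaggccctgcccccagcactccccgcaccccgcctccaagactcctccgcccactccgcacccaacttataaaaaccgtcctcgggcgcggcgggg
KDM3A (chr2:86441121-86441370, plus strand): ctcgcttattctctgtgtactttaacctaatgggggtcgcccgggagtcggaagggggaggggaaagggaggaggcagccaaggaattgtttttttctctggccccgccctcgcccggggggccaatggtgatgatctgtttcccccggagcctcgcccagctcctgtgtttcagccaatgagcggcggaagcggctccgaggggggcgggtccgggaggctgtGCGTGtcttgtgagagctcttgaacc
ALDOC (chr17:28576896-28577145, minus strand): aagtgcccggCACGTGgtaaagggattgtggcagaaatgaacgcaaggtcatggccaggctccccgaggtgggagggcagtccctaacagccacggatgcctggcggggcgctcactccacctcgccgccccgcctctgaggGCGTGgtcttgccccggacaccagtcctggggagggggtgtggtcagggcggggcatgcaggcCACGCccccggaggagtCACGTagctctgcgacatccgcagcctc
LDHA (chr11:18394313-18394562, plus strand): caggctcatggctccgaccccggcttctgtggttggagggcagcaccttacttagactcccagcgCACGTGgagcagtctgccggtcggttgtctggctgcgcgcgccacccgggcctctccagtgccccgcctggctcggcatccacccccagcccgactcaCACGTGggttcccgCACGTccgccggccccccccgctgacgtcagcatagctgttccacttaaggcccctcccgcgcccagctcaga
BNIP3 (chr10:131981924-131982173, minus strand): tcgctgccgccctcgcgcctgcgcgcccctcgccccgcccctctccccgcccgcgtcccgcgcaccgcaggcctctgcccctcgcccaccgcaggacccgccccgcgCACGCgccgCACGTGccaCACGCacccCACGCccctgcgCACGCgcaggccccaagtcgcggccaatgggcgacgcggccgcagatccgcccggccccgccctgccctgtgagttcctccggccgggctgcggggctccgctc

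The BNIP3 window held 6 matches, LDHA and ALDOC 5 each, and ANGPTL4 and KDM3A 1 each. The log2 ratios were -0.04 for BNIP3, -0.48 for LDHA, 0.67 for ALDOC, 1.21 for ANGPTL4 and 0.93 for KDM3A. Because the 5 windows were picked for their different readings, their numbers of matches are not read against these ratios. Of the 36 members with a promoter of RefSeq in the reference used, 23 (63.9%) held ACGTG or GCGTG on either strand, beside 43.1% of 27305 promoter windows of the same length. Among members called higher 3 of 5 windows held it, among those called lower 1 of 2, and among those not called 19 of 29. The window of HKDC1 held no match. The E-box CACGTG, which overlaps the first core, stood in 6 of 36 windows (16.7%, 6.49% of all windows). TGACNNNGC, the core of the element bound by the oxidative stress factor NRF2, stood in 5 (13.9%, 11.0% of all windows), also on both strands. A match describes letters and is neither a measured binding site nor a cause. BNIP3L, HILPDA, NDRG1, SLC16A1, SLC2A3, STC1 and VEGFA had no entry.

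Glucose enters the cell through facilitative transporters. SLC2A1, which encodes the widespread transporter GLUT1, had 398 CPM in control cells and 356 CPM with CCE, a ratio of 0.895 (0.856 to 0.937). SLC2A3, which encodes the high-affinity neuronal transporter GLUT3, had 34.7 and 41.4 CPM, a ratio of 1.19 (1.02 to 1.39). Both lay within 1.5-fold, on opposite sides of 1. By FPKM both were lower with CCE, SLC2A1 at 88.3 and 21.2 and SLC2A3 at 4.33 and 4.15. Per kilobase of merged exons, SLC2A1 made up 92.6% of the summed level of the pair in control cells and 90.4% with CCE.

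Hexokinases trap glucose in the cell by phosphorylating it. All 3 members had intervals above 1. HKDC1, a hexokinase of low abundance in most tissues, had 25 control counts (4.50 CPM) and 857 CCE counts (24.2 CPM), 5.39 times higher (3.63 to 8.38). It was the highest ratio of all members, and the gene lies on chromosome 10 from 70980088 to 71027308 (GRCh37), just before HK1, which starts at 71029740 on the same strand. HK1, the housekeeping isozyme, had 224 and 283 CPM, a ratio of 1.27 (1.19 to 1.34). HK2, the isozyme raised in many tumours, had 32.7 and 40.7 CPM, a ratio of 1.24 (1.06 to 1.46). Per length, HK1 was the main hexokinase in both libraries, with 83.1% of the summed level in control cells and 76.6% with CCE. The share of HKDC1 was 2.72% and 10.7%, or 1.78% and 7.18% by the length of the canonical transcript. The count of HKDC1 relative to HK1 within a library, which no scaling touches, was 4.26 times higher in the CCE library (2.85 to 6.37). By the authors' FPKM HKDC1 went the other way, with 0.967 in control cells and 0.0842 with CCE. An lncRNA on the opposite strand, ENSG00000229261, had 0 and 39 counts. The direction for HKDC1 thus depends on which deposited file is read. Its FPKM was 0.909 times its count-based level per kilobase of merged exons in control cells, and 0.0147 times with CCE.

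Of the enzymes that follow, GPI, the glucose phosphate isomerase, had 254 and 255 CPM and a ratio of 1.00 (0.95 to 1.06), with a sign that changed under other scalings. The phosphofructokinases carry out the main committed step. PFKP, the platelet isozyme, had 225 and 169 CPM, a ratio of 0.753 (0.708 to 0.801). PFKM, the muscle isozyme, had 80.4 and 102 CPM, a ratio of 1.27 (1.15 to 1.40). PFKL, the liver isozyme, had 54.5 and 50.1 CPM, and its interval included 1. PFKP and PFKM therefore differed in direction, and the count of PFKM relative to PFKP was 1.68 times higher in the CCE library (1.499 to 1.889). Per length, PFKP made up 62.7% of the phosphofructokinase level in control cells and 52.5% with CCE, and PFKM 24.0% and 33.9%. PFKM overlaps SENP1 on the opposite strand, which had 181 and 1443 counts, and what that overlap adds was not tested.

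Aldolase cleaves the hexose. ALDOA, the main isozyme, had 1184 and 1203 CPM, a ratio of 1.02 (0.99 to 1.04) that was below 1 under upper-quartile scaling. ALDOC, the brain isozyme, on chromosome 17 from 26900133 to 26903966, had 23 control counts (4.14 CPM) and 232 CCE counts (6.56 CPM), a ratio of 1.59 (1.03 to 2.55). This wide interval makes ALDOC the least precise of the members called. An lncRNA on the opposite strand, ENSG00000265168, had 30.4% and 31.9% of the counts of ALDOC. Per length ALDOC was 0.509% of the aldolase level in control cells and 0.794% with CCE. TPI1, which interconverts the triose phosphates, had 554 and 528 CPM, a ratio of 0.954 (0.919 to 0.992). PFKFB3 and PFKFB4, which set the level of the allosteric activator of phosphofructokinase, had ratios of 0.943 (0.831 to 1.073) and 1.10 (0.89 to 1.36), with intervals that included 1.

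The lower part of the pathway showed the lowest and one of the highest ratios per step. GAPDH, the triose phosphate dehydrogenase, had 3236 and 2648 CPM, a ratio of 0.818 (0.805 to 0.831). PGK1, the phosphoglycerate kinase, had 395 and 363 CPM, a ratio of 0.920 (0.879 to 0.963). PGAM1 had 1633 control counts (294 CPM) and 6428 CCE counts (182 CPM), 1.61 times lower (1.53 to 1.71). PGAM1, on chromosome 10 from 99185948 to 99193201, was the only glycolysis gene called lower by counts, and no other counted gene overlaps it. ENO1, the main enolase, had 1618 and 1507 CPM, a ratio of 0.931 (0.910 to 0.952), and ENO2, the neuronal enolase, 115 and 88.5 CPM, a ratio of 0.766 (0.704 to 0.835). PKM, which encodes the muscle-type pyruvate kinases of the last step, had 13330 counts (2397 CPM) and 112478 counts (3182 CPM), a ratio of 1.33 (1.30 to 1.35). By counts PKM was the one gene of this group above 1. By FPKM PKM was lower, at 720 and 664, and PGK1 higher, at 62.8 and 155, so the FPKM files turn both directions.

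After pyruvate, values were lower in the CCE library. LDHA, the lactate dehydrogenase subunit that HIF raises, had 1236 and 886 CPM, a ratio of 0.717 (0.698 to 0.736). LDHB, the heart-type subunit, had 692 and 566 CPM, a ratio of 0.817 (0.790 to 0.846). Both subunits were lower, LDHA by more: its count relative to LDHB was 0.877 times the control value (0.840 to 0.915). SLC16A3, which encodes the lactate exporter MCT4, had 226 and 164 CPM, a ratio of 0.726 (0.683 to 0.772). It overlaps CSNK1D on the opposite strand, which held 85.0% and 84.5% as many counts. SLC16A1, which encodes MCT1, had 15 and 66 counts, and its interval included 1 (0.391 to 1.306). SLC16A3 made up 98.3% of the level of the pair per length in control cells and 98.4% with CCE, so MCT4 was the main transcript of the pair in both. Within a library, 1.94 PKM counts stood against each LDHA count in control cells and 3.59 with CCE, a 1.85-fold difference (1.79 to 1.91) that needs no scaling. Pairs compared within a library were chosen after their values were seen. Per length, LDHA made up 46.9% of the 2 subunits in control cells and 43.7% with CCE, or 51.0% and 47.7% by canonical transcript length, so which subunit leads depends on the length used.

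**Figure D3:**
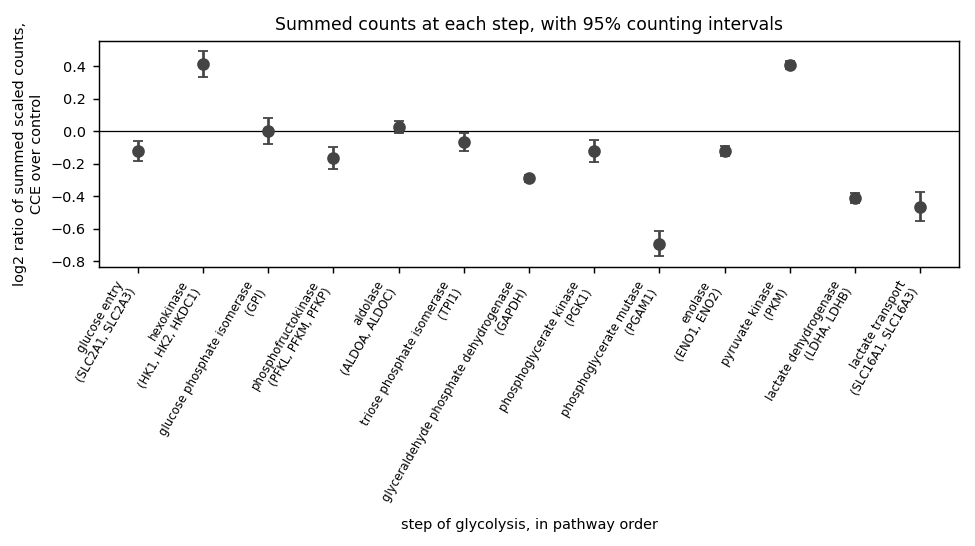
Log2 ratio of summed scaled counts, CCE over control (vertical axis), at 13 steps from glucose entry to lactate transport (horizontal axis), with bars for 95% counting intervals and genes of each step in brackets. The hexokinase and pyruvate kinase steps stand above 0 at 0.42 and 0.41, and phosphoglycerate mutase is lowest at -0.69.

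Summed over isozymes, the hexokinase step was 1.33 times higher (1.26 to 1.41) and the pyruvate kinase step 1.33 times higher (1.30 to 1.35). These intervals lay above 1 under all 4 scalings run. Under TMM scaling, aldolase and glucose phosphate isomerase had intervals that included 1. The scalings of the step sums were added after seeing the data. Under total-count scaling, the aldolase step also lay above 1 (1.02 to 1.07) and the interval of TPI1 included 1. The other steps lay below 1 under TMM scaling, with lactate dehydrogenase at 0.753 (0.737 to 0.769) and lactate transport at 0.725 (0.682 to 0.771). No step passed 1.5-fold except phosphoglycerate mutase.

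Several members have processed pseudogenes that can share reads. GAPDH had 64 annotated ones with 37 and 390 counts in all, and BNIP3 42 with 16 and 72. Over all members such counts were at most 2.44% of the sum of gene and pseudogenes in control cells and 1.79% with CCE. The authors' tables list records that aligned to several places apart from genes. They made up 11.6% of control and 17.3% of CCE records, and which genes they came from is not recorded. An lncRNA on the opposite strand of GAPDH, ENSG00000269968, held 61.3% as many counts as GAPDH in control cells and 62.0% with CCE. No source used here gives the strand setting of the counting, so reads of a gene and its antisense partner cannot be told apart. Also set apart from genes were records marked ambiguous, 1.59% of control and 1.36% of CCE records. Records with no feature made up 38.0% and 33.9%. How these bear on antisense partners was not tested.

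Of the regulators of the hypoxia response, HIF1A, which encodes the main oxygen-regulated subunit, had 2515 counts (452 CPM) and 20411 counts (578 CPM), a ratio of 1.28 (1.22 to 1.33). EPAS1, which encodes the related subunit HIF-2 alpha, had 65.3 and 56.7 CPM, a ratio of 0.869 (0.776 to 0.974). They lay on opposite sides of 1, both within 1.5-fold. HIF1A held 90.7% of the level of the pair per length in control cells and 93.5% with CCE. EGLN1, which encodes the main prolyl hydroxylase that marks HIF for breakdown, had 37.8 and 49.5 CPM, a ratio of 1.31 (1.13 to 1.52). EGLN3, a prolyl hydroxylase gene that is itself a HIF target, had 12 and 119 counts, a ratio of 1.56 whose interval included 1 (0.861 to 3.104). It overlaps SPTSSA on the same strand, which had 339 and 1587 counts, and what that overlap adds was not tested. By FPKM, HIF1A and EGLN1 were lower in the CCE library, at log2(FPKM + 1) differences of -2.03 and -1.43.

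Among the secreted products, ANGPTL4, an inhibitor of lipoprotein lipase, had 200 control counts (36.0 CPM) and 2942 CCE counts (83.2 CPM), a ratio of 2.31 (2.005 to 2.684). ANGPTL4, on chromosome 19 from 8428173 to 8439254 (GRCh37), overlaps no other counted gene. Its FPKM values were 16.2 and 34.8, so both files place it higher in the CCE library. STC1, a secreted glycoprotein hormone of calcium and phosphate balance, had 88 counts (15.8 CPM) and 257 counts (7.27 CPM), a ratio of 0.459 (0.359 to 0.592). STC1 was lower by FPKM as well, at 4.13 and 1.86. VEGFA, the growth factor of blood vessels, had 330 and 356 CPM, a ratio of 1.08 (1.03 to 1.13), and ADM, the vasodilator peptide adrenomedullin, 47.5 and 58.9 CPM, a ratio of 1.24 (1.09 to 1.42). The 4 secreted products thus ran from lower to higher.

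Carbonic anhydrases at the cell surface buffer the acid that glycolysis produces. CA9, one of the most HIF-dependent genes of many tumours, had 1 count in each library. Its mean of 0.104 CPM was under the 1 CPM needed, so it was not measured. CA12, on chromosome 15 from 63613577 to 63674045, had 96 control counts (17.3 CPM) and 311 CCE counts (8.80 CPM), a ratio of 0.510 (0.404 to 0.648). By FPKM CA12 was higher in the CCE library, at 0.433 and 1.44, so its direction differed between the files.

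Of the mitochondrial targets, none was called. BNIP3 and BNIP3L, receptors that mark mitochondria for autophagy, had ratios of 0.971 (0.893 to 1.057) and 0.927 (0.843 to 1.021). PDK1, which inhibits pyruvate dehydrogenase, had 49 and 399 counts, a ratio of 1.28 (0.95 to 1.76). All 3 intervals included 1. PDK1 overlaps the lncRNA PDK1-AS1 on the opposite strand, which had 162 and 548 counts, more than PDK1 in each library. What that overlap adds was not tested.

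Of 6 other intracellular targets, 3 were called higher, in a group too small to read against the 12.1% of all measured genes. NDRG1, a stress-responsive gene linked to differentiation, had 293 counts (52.7 CPM) and 4029 counts (114 CPM), a ratio of 2.16 (1.92 to 2.44). KDM3A, a histone demethylase gene on chromosome 2 from 86667770 to 86719839, had 269 counts (48.4 CPM) and 3260 counts (92.2 CPM), a ratio of 1.91 (1.68 to 2.17). MXI1, which encodes a MAX partner that opposes MYC, lies on chromosome 10 from 111967363 to 112047123 and had 161 counts (29.0 CPM) and 1876 counts (53.1 CPM), a ratio of 1.83 (1.56 to 2.17). All 3 were higher by FPKM too, NDRG1 at 15.1 and 28.4, KDM3A at 0.418 and 12.4, and MXI1 at 12.2 and 16.2. For KDM3A the files share the side but not the size of the ratio. Its FPKM was 0.115 times its count-based level per kilobase of merged exons in control cells, and 1.79 times with CCE. ANKRD37 (1.14, 0.84 to 1.60), HILPDA, a lipid droplet protein gene (1.17, 0.94 to 1.47), and BHLHE40, a circadian repressor gene (0.954, 0.849 to 1.075), had intervals that included 1. NDRG1 and KDM3A overlap no other counted gene. ANKRD37, with 45 and 327 counts, overlaps UFSP2 on the opposite strand, which had 119 and 776. What that overlap adds was not tested.

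**Figure D4:**
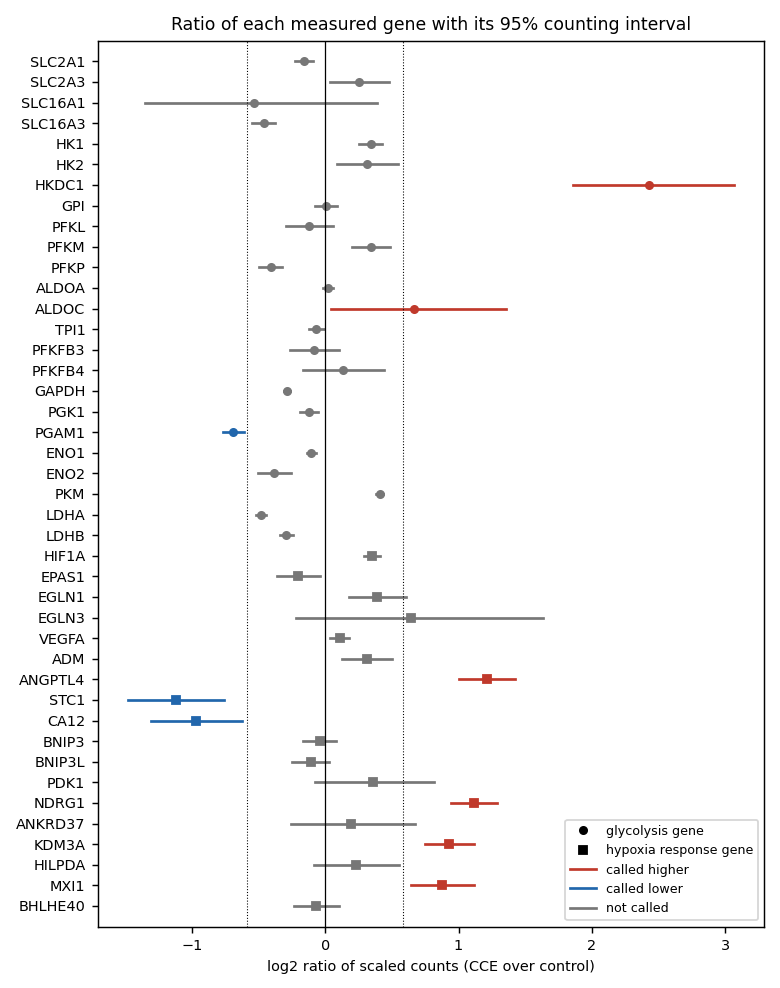
CCE over control as log2 ratio of the 42 measured genes, as points with lines for 95% counting intervals and dotted lines at 1.5-fold (circles for glycolysis genes, squares for hypoxia genes). The 6 red genes were called higher and the 3 blue genes lower. EGLN3 and SLC16A1 have among the widest intervals, with 12 and 15 control counts.

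The authors' FPKM values gave another picture for part of the genes. Over the 42 measured members, log2 ratios from counts and from FPKM (pseudocount 1) had a Spearman's rho of 0.452, a description across genes of the same 2 libraries. 12 of 42 lay on opposite sides of 0: SLC2A3, HKDC1, GPI, ALDOA, PFKFB3, PFKFB4, PGK1, PKM, HIF1A, EGLN1, VEGFA and CA12. Of the 9 members called by counts, 7 lay on the same side by FPKM, and the exceptions were HKDC1 and CA12. By FPKM 9 members lay beyond 1.5-fold above and 15 beyond 1.5-fold below the control, where 21.2% and 24.1% of all measured genes were. ENO1 had 720 FPKM in control cells and 6.23 with CCE, while its counts gave a ratio of 0.931. ALDOA had 419 and 20.4 FPKM and BNIP3 111 and 2.02, with counts near 1 in ratio. HK2 and PFKM were higher by FPKM, at 0.121 and 5.59 and at 2.79 and 24.8, with counts at ratios of 1.24 and 1.27. Counts per kilobase of merged exons placed ENO1 at 310 and 289 CPM per kilobase. The FPKM of 6 members in the CCE library and 3 in the control library were under 0.1 times that count-based level. What made the files differ was not tested.

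**Figure D5:**
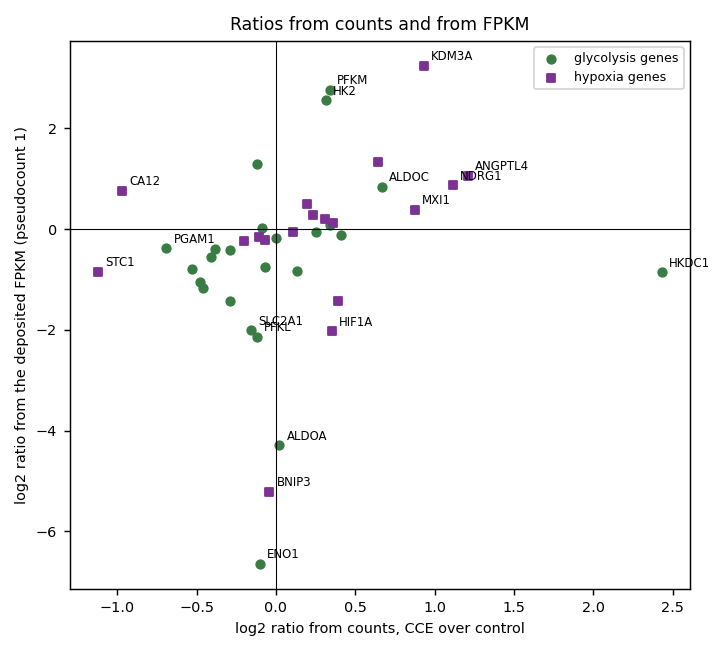
Log2 ratio from counts (horizontal axis) against log2 ratio from FPKM with a pseudocount of 1 (vertical axis) for the 42 measured genes, CCE over control, circles for glycolysis and squares for hypoxia genes. ENO1, BNIP3 and ALDOA lie near 0 by counts and far below 0 by FPKM, while HKDC1 and CA12 lie in opposite quadrants.

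Other genes of the same pathways were read from 2 wider lists. Of 45 further genes of glucose, glycogen and pyruvate metabolism, 32 were measured, 6 were called higher (18.8%, beside 12.1% of all measured genes) and 4 lower (12.5%, beside 11.3%), with a median log2 ratio of 0.11, beside 0.05. PDK4, a pyruvate dehydrogenase kinase like PDK1, was 2.32 times higher (1.72 to 3.19), with 46 and 677 counts. GBE1, the glycogen branching enzyme, was 1.84 times higher (1.64 to 2.06). ADPGK, the ADP-dependent glucokinase, and TIGAR, a fructose bisphosphatase that p53 regulates, were 1.69 (1.48 to 1.94) and 1.62 times higher (1.24 to 2.16). ADPGK was lower by FPKM, at a log2 difference of -3.26. Of 50 further genes of oxygen sensing and HIF targets, 43 were measured, 3 were called higher (6.98%) and 5 lower (11.6%), with a median of -0.10. Against the same background, neither list is read as a result. P4HA1, of collagen prolyl hydroxylation, and PLOD2, of collagen lysyl hydroxylation, were 1.91 (1.68 to 2.17) and 1.78 times higher (1.61 to 1.97). CITED2, which competes with HIF for its coactivators, had a log2 ratio of -0.80 (-0.95 to -0.65).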

How the data were processed

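RNA of 2 libraries of MDA-MB-231 cells was measured, grouped by the treatment label. The authors deposited raw counts per Ensembl gene and FPKM values. Per the submitters' processing notes HISAT2 and builds hg19 and GRCh37 were used. How reads were counted, with which strand setting, and how FPKM were computed is not stated there. The 5 last rows of each count table name no gene (62.9% and 66.8% of records) and were left out. FPKM rows repeat gene IDs, were taken as transcripts and were summed per gene; their depth is unknown. Symbols, overlaps and lengths came from GENCODE release 44 lifted to GRCh37. Counts were scaled with TMM factors (0.987 and 1.01; edgeR 4.0.16, R 4.3.3). Ratios had no pseudocount, and intervals came from scipy 1.17.1 (Python 3.11.15); ratios between genes within a library have Woolf intervals. The procedure was checked on simulated counts with counting error only, a check that cannot cover variation from culture to culture.

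The members and lists were chosen with earlier results of these data known. Every member is named. Of the other genes, those named are up to 4 per list with the highest absolute log2 ratio among genes averaging 5 CPM or more whose interval left out 1; 1 gene that meets this rule is not reported here.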

Additional observations from a re-analysis of the deposited data

How the results depend on the processing

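No paired analysis was possible because each group has 1 library, and leaving out a library was not possible for the same reason. Scaled by DESeq2 1.42.0 factors, by totals or by upper quartiles, and with pseudogene counts added, the 9 called members kept their direction and call; upper-quartile scaling moved all log2 ratios by -0.04 and changed the sign of GPI and ALDOA, and DESeq2 scaling that of GPI. ALDOC, with 23 control counts and an interval from 1.03 under TMM scaling, kept its call under upper-quartile scaling only narrowly. The FPKM values reversed HKDC1 (-0.86 at a pseudocount of 1, -2.53 at 0.1) and CA12 (0.76 and 1.53). With FPKM at a pseudocount of 1, 15 members were lower, the median was -0.20 over members and -0.49 over glycolysis genes, 9 other glycolysis genes were lower, and 6 other hypoxia genes were higher and 14 lower. At a pseudocount of 0.1, 10 members were higher and 15 lower, the medians were -0.20 and -0.49, 10 other glycolysis genes were lower, and 7 other hypoxia genes were higher and 15 lower. At 2-fold, 3 members were higher and 1 lower, 3 and 2 other glycolysis genes, and 1 and 0 other hypoxia genes. Over genes that overlap no other counted gene, 3 of 16 members were called higher and 3 lower. Of such other glycolysis genes, 1 and 0 of 8 were called higher and lower, and of such other hypoxia genes 0 and 2 of 14. Neither these counts nor those at a pseudocount of 0.1 have a share over all measured genes beside them, and neither is read as a result. Among genes averaging 5 CPM or more, 4 of 28 other glycolysis genes were called higher and 2 lower. For this cut too there is no share over all measured genes, and the counts are not read as a result. Alternatives for the other genes, and the canonical transcript length, were added after seeing the data. By that length BNIP3 held 74.0% and 74.9% of the level of the BNIP3 pair, in place of 56.6% and 57.7%. The control library, at 5633569 counts, set the precision.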
